A study of Mus musculus with 4 samples.

Results

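The genes described here are 7 transcription factor genes that act through one DNA word, the E-box: the E protein genes Tcf3, Tcf4 and Tcf12, the Id genes Id2 and Id3, and the Zeb genes Zeb1 and Zeb2. They were chosen by name, not by their values, and are 7 of the 32285 genes in the RNA table; all 7 were found. The cells were marrow T cells, sorted on day 14 after an allogeneic transplant between mouse strains. C57Bl/6 (B6) recipients were given, from C3H.SW (C3HSW) donors, 5000000 bone marrow cells along with 500000 T cells of the CD4 class and 500000 of the CD8 class. One group, alloBMT, had the transplant alone. The other, PT-Cy, had the same transplant and 50 mg/kg cyclophosphamide on day 3 and again on day 4. Each group is 1 pool of 4 mice and 1 multiome library, which reads the RNA and the open chromatin (ATAC) of each nucleus, so no replicate error exists and no test was made. The labels used here do not state the age of the mice or whether a sorted T cell came from donor or recipient.

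E proteins are basic helix-loop-helix factors that bind E-boxes as dimers and, in lymphocytes, turn on genes of lineage commitment. Id proteins carry the same dimerization surface but no DNA-binding part, and so hold E proteins off DNA. Zeb1 and Zeb2 are zinc finger and homeodomain repressors that bind a subset of E-boxes. In T cells Id2 and Zeb2 are known for effector cells, while Id3, Tcf7 and Zeb1 are known for memory or less differentiated cells.

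The CD4 set held 926 alloBMT and 284 PT-Cy cells with 3027967 and 1264107 RNA molecules (UMIs), a median of 2750 and 3889 per cell. The CD8 set held 1865 and 512 cells. RNA counts were used for the CD4 set, and ATAC counts for both sets: 6974362 and 1538967 in CD4 cells, 16605930 and 3117872 in CD8 cells. Of 3587 cells in all, 2 barcodes occurred in both libraries. Cd4 stood at 649 and 407 counts per 1000000 counts of the set (CPM) in the alloBMT and PT-Cy CD4 sets and Cd3e at 861 and 638 CPM, while Cd8a had no UMI in either and Cd8b1 stood at 100.1 and 131 CPM. The summed level of 14 myeloid genes was 166 CPM in alloBMT and 462 CPM in PT-Cy, that of 8 erythroid genes 211 and 870 CPM, that of 10 B cell genes 38.6 and 166 CPM, and that of 6 genes of dividing cells 542 and 2185 CPM. A list of 10 plasmacytoid dendritic cell genes summed to 535 and 550 CPM, with Cox6a2, Ly6d, Spib and Klk1 at 0. The part of these differences in the results below was not tested, except where a value without those cells is given.

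Promoter sequences are shown because the E-box is the word that E proteins and Zeb factors both read. Zeb2 and Tcf12 are shown for their RNA, Id3 for its start-site peak, and Id2 as the other Id gene. The Tcf3 window, with 1 E-box (CACTTG), lies inside the annotated gene and is not printed. The bases upstream of the annotated gene start are given 5′ to 3′ on the gene's strand, from RefSeq on GRCm38.p6, with every CANNTG E-box in capitals (N is any base; the word is its own reverse complement, so both strands are covered). The windows are chr12:25096093-25096342 (minus strand) for Id2, chr4:136143572-136143821 (plus) for Id3, chr9:72111894-72112069 (minus) for Tcf12 and chr2:45117443-45117692 (minus) for Zeb2. Promoter sequences were matched for 5 of the 7 genes.
Id2: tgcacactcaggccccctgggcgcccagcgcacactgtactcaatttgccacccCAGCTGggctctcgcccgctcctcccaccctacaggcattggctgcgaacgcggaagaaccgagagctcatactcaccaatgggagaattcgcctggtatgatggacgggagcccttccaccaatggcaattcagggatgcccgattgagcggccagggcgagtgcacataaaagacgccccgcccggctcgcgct
Id3: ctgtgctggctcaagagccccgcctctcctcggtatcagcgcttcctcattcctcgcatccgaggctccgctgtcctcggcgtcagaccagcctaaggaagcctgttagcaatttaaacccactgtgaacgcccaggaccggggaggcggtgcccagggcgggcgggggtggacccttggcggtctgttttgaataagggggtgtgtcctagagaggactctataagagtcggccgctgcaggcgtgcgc
Tcf12: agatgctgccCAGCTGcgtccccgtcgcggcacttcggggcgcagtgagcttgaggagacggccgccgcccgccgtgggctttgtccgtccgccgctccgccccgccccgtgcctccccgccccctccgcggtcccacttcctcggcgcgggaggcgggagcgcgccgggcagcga
Zeb2: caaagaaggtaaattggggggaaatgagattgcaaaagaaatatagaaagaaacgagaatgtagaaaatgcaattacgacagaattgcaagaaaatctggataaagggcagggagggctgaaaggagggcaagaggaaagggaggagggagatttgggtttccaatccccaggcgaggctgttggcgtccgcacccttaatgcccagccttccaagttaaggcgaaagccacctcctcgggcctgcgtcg
The Id2 and Tcf12 windows each held 1 E-box, in both cases CAGCTG, and the Id3 and Zeb2 windows held none. Of 32851 RefSeq promoter windows of 250 bases, 66.2% held a CANNTG and 13.0% a CAGCTG, while over 176 bases, the length printed for Tcf12, 54.7% and 9.0% did. None of the 4 windows held CACCTG or its reverse complement CAGGTG, the form often tied to Zeb factors, which 17.2% of windows of 250 bases and 12.8% of windows of 176 bases held. These matches describe the letters in the windows only.

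In CD4 cells, Zeb2 was the member furthest from equality with at least 100 UMIs, at a 2.35-fold lower level in PT-Cy, and Tcf12 and Tcf3 were 1.51-fold and 1.55-fold higher. Id2 and Zeb1 differed by less than 1.5-fold, in opposite directions. A gene was called where the libraries were at least 1.5-fold apart with at least 100 UMIs between them. By this rule 3 of the 6 members with that many UMIs were called, 2 higher and 1 lower. Among all 6285 genes with 100 UMIs, 12.5% were called higher and 9.5% lower in PT-Cy, 22% in all, and the median log2 ratio was 0.02. Each interval below is an exact 95% interval for counting error alone.

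**Figure D1:**
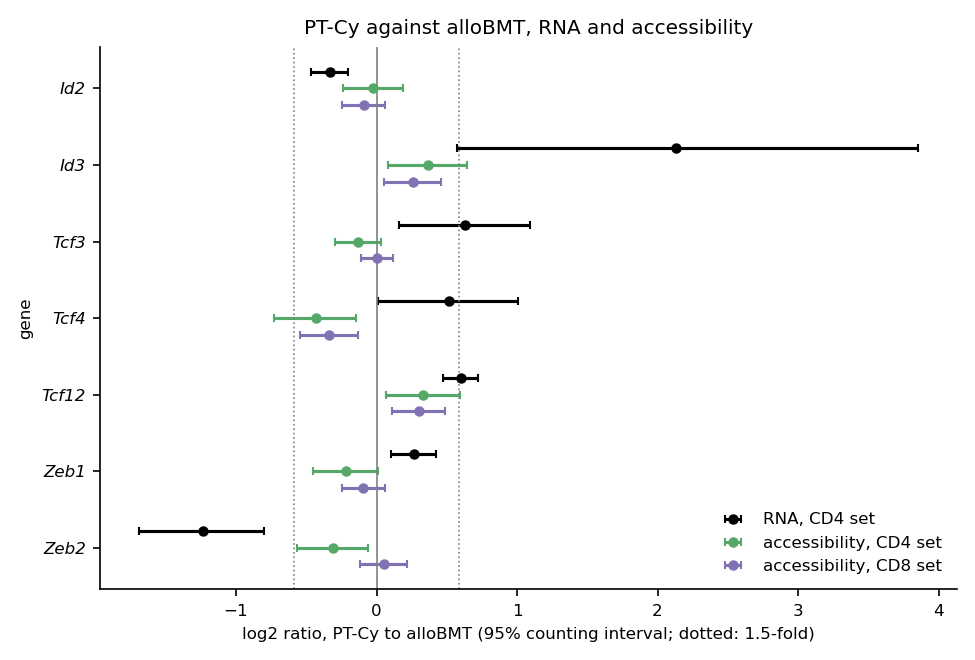
Log2 ratio of PT-Cy to alloBMT (horizontal axis) for each of the 7 genes (vertical axis), for CD4 RNA in black, CD4 accessibility in green and CD8 accessibility in purple, with 95% counting intervals and dotted lines at 1.5-fold. Zeb2 RNA lies at -1.23 and Tcf12 RNA at 0.60, while accessibility ratios lie between -0.43 and 0.37.

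Id2, the Id protein of effector T cells, had 1847 UMIs in alloBMT and 612 in PT-Cy, which is 610 and 484 CPM. The PT-Cy level was lower by a log2 ratio of -0.33 (-0.47 to -0.20), 1.26-fold. Id3, the Id protein linked to memory precursors, had 6 UMIs in alloBMT and 11 in PT-Cy, or 1.98 and 8.70 CPM. Its log2 ratio of 2.13 had an interval from 0.57 to 3.85, and with 17 UMIs in all it lies under the minimum for a call. The 2 Id genes thus lay on opposite sides of equality, Id2 with a narrow interval and Id3 with a wide one.

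Among the E proteins, Tcf12 (HEB) had 1372 UMIs in alloBMT and 867 in PT-Cy, 453 and 686 CPM, a log2 ratio of 0.60 (0.47 to 0.72). Tcf3, which encodes E2A, had 102 and 66 UMIs, 33.7 and 52.2 CPM, a log2 ratio of 0.63 (0.16 to 1.09). Both sit just above the threshold of 1.5-fold, so the call depends on the scaling. With TMM or DESeq2 size factors every RNA ratio falls by 0.13 or 0.14 on the log2 scale, and Tcf12 then stood at 0.47 or 0.46 and Tcf3 at 0.50 or 0.49, above 0 but not called. Leaving out the deepest 5% of cells, Tcf12 was at 0.57 and Tcf3 at 0.59, and in cells with no Cd8b1 UMI they were at 0.55 and 0.50. Without cells holding a UMI of 8 defining genes of B cells, plasmacytoid dendritic cells and myeloid cells, Tcf12 was at 0.48 (0.34 to 0.63) and Tcf3 at 0.48 (-0.10 to 1.03).

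Tcf4 (E2-2), the E protein best known for plasmacytoid dendritic cells, had 94 UMIs in alloBMT and 56 in PT-Cy, 31.0 and 44.3 CPM, a log2 ratio of 0.51 (0.01 to 1.01). One cell decided that direction. Of the 56 PT-Cy UMIs, 32 (57.1%) came from a single cell of deposited cluster 2 with 8711 UMIs in all. That cell also held 30 UMIs of the plasmacytoid dendritic cell list, among them 3 of Siglech, which encodes a surface receptor of that cell type, and 7 of Irf8. It held 16 UMIs of Tcf12 and 7 of Zeb2 as well, and 2 of Cd4, 5 of Cd3e and 7 of Bcl11b, which are T cell genes. No other cell of either library had more than 4 Tcf4 UMIs. Without the cell with most Tcf4 UMIs in each library, Tcf4 stood at 29.8 CPM in alloBMT and 19.1 CPM in PT-Cy, a log2 ratio of -0.64 (-1.35 to 0.02). Without all cells with a UMI of the 8 defining genes the ratio was -1.01 (-1.93 to -0.19).

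**Figure D2:**
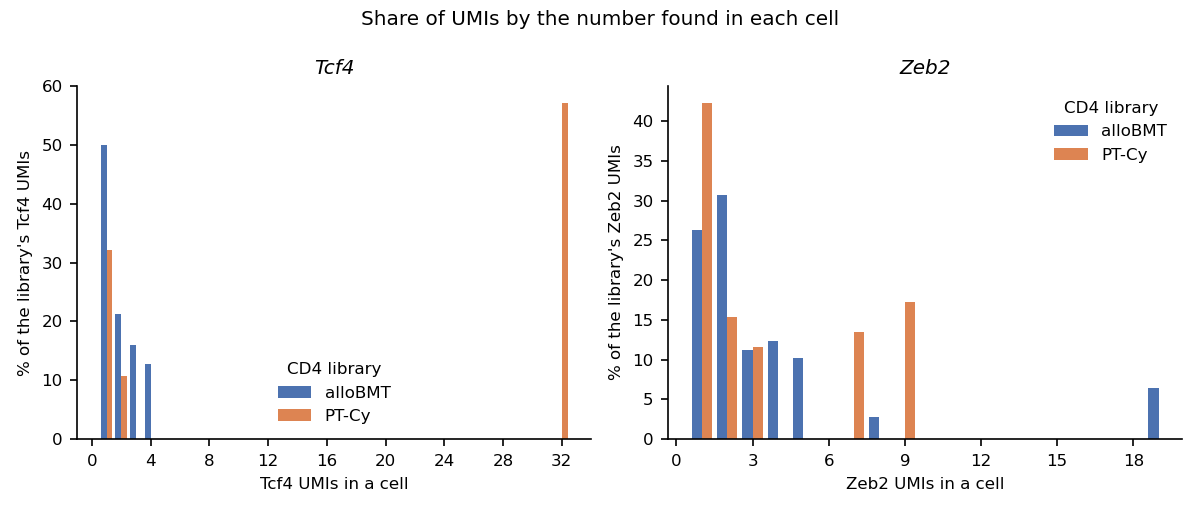
Share of each library's Tcf4 UMIs (left) and Zeb2 UMIs (right), in percent on the vertical axis, that came from cells with the number of UMIs on the horizontal axis, alloBMT in blue and PT-Cy in orange. A bar at 32 UMIs, 1 cell, holds 57.1% of the PT-Cy Tcf4 UMIs, and the highest Zeb2 cells hold 19 UMIs in alloBMT and 9 in PT-Cy.

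Zeb1, the Zeb factor of less differentiated T cells, had 979 UMIs in alloBMT and 491 in PT-Cy, 323 and 388 CPM, a log2 ratio of 0.26 (0.11 to 0.42). Zeb2, which acts with T-bet in effector cells, had 293 and 52 UMIs, 96.8 and 41.1 CPM. The PT-Cy level of Zeb2 was lower by a log2 ratio of -1.23 (-1.69 to -0.80), which is 2.35-fold (1.75 to 3.22). Single cells weighed on Zeb2 less than on Tcf4. The highest Zeb2 cell had 19 of the 293 alloBMT UMIs and 9 of the 52 PT-Cy UMIs, and without these the log2 ratio was -1.41 (-1.91 to -0.94). The second highest PT-Cy cell, with 7 Zeb2 UMIs, was the Tcf4-high cell. Zeb2 is also a gene of myeloid cells, whose markers were higher in PT-Cy, and without cells that held a UMI of the 8 defining genes Zeb2 stood at -1.24 (-1.78 to -0.74).

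The deposited clusters of the CD4 set were unevenly filled. Clusters 0, 1 and 3 held 374, 320 and 156 alloBMT cells. PT-Cy had 4 cells in cluster 0, 11 in cluster 3 and none in cluster 1, and 238 of the 284 PT-Cy cells were in cluster 2, which held 42 alloBMT cells. Cluster 2 was rich in dividing cells, with Mki67 at 866 CPM in alloBMT and 821 CPM in PT-Cy against 136 CPM in alloBMT cluster 0. Cluster 4 was the cluster with Foxp3, the regulatory T cell factor, at 240.4 CPM in 34 alloBMT cells and 207 CPM in 31 PT-Cy cells. Clusters were made by the authors from these same cells, so levels across them are a description, and groups under 30 cells are not ordered.

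Zeb2 was uneven across alloBMT clusters. Its level was 235 CPM (171 to 316) in cluster 2, 122 CPM (102 to 144) in cluster 1, 88.3 CPM (62.8 to 121) in cluster 3, 59.0 CPM (45.7 to 74.9) in cluster 0 and 38.8 CPM (12.6 to 90.5) in cluster 4. Clusters 1 and 0 do not overlap in their intervals, while clusters 1 and 3, 3 and 0, and 0 and 4 do. Cluster 2 lay above cluster 1 without overlap only with 1 cell that held 19 of its 44 UMIs, and without that cell it stood at 142 CPM (91.9 to 210), which overlaps cluster 1. In PT-Cy, Zeb2 stood at 42.0 CPM (30.5 to 56.4) in cluster 2 and 21.4 CPM (4.41 to 62.4) in cluster 4. Within cluster 2 alone the 44 UMIs of each library gave a log2 ratio of -2.48 (-3.12 to -1.85), wider apart than over all CD4 cells. Without the highest cell of each library cluster 2 stood at 142 and 33.6 CPM, -2.08 (-2.86 to -1.28).

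Tcf4 was likewise uneven in alloBMT. Cluster 1 held 62 of the 94 UMIs at 54.7 CPM (41.9 to 70.1), against 11.4 CPM (6.09 to 19.6) in cluster 0, with cluster 3 at 27.2 CPM (14 to 47.5) and clusters 2 and 4 at 26.7 and 15.5 CPM on 5 and 2 UMIs. Tcf4 and Zeb2 were both higher in cluster 1 than in cluster 0, and the intervals of clusters 1 and 0 did not overlap for either gene. The PT-Cy value of Tcf4 in cluster 2, 49.7 CPM, includes the cell with 32 UMIs, and without the highest cell it was 19.3 CPM. In alloBMT cluster 2 without its highest cell, Tcf4 stood at 10.9 CPM on 2 UMIs, which gives a log2 ratio of 0.82 (-1.22 to 3.96).

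Tcf12 had its highest level in PT-Cy cluster 2, at 711 CPM (661 to 764). The other groups were at 555 CPM (439 to 693) in PT-Cy cluster 4 and, in alloBMT, 503 CPM (462 to 545) in cluster 0, 497 CPM (401 to 609) in cluster 2, 481 CPM in cluster 4, 453 CPM in cluster 3 and 393 CPM (358 to 431) in cluster 1. PT-Cy cluster 2 lay above every alloBMT cluster without overlap, and within cluster 2 the log2 ratio was 0.52 (0.20 to 0.84). Within cluster 4 it was 0.21 (-0.29 to 0.71).

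Id2 and Zeb1 showed smaller spreads. Id2 in alloBMT was at 646 CPM (600.1 to 694) in cluster 0, 616 CPM in cluster 1, 591 CPM in cluster 3, 518 CPM in cluster 2 and 434 CPM (328 to 564) in the Foxp3 cluster 4. In PT-Cy it was at 510.2 CPM (468 to 555) in cluster 2 and 199 CPM (132 to 288) in cluster 4. The lower Id2 level of the whole PT-Cy set was not seen within cluster 2, where the log2 ratio was -0.02 (-0.34 to 0.30), and was widest in cluster 4, at -1.12 (-1.83 to -0.44) on 56 and 28 UMIs. Zeb1 was at 470.4 CPM (377 to 580) and 457 CPM (348 to 590) in alloBMT clusters 2 and 4 and at 333, 290.1 and 283 CPM in clusters 0, 1 and 3. In PT-Cy it was at 396 and 385 CPM in clusters 2 and 4, so that within each of these clusters the log2 ratio was -0.25, with intervals that include 0 (-0.59 to 0.10 and -0.81 to 0.31), against 0.26 over all cells. Tcf3 lay between 29.4 and 48.1 CPM in the alloBMT clusters and at 50.6 and 78.3 CPM in PT-Cy clusters 2 and 4, with overlapping intervals throughout. Id3 had at most 9 UMIs in any cluster, those 9 in PT-Cy cluster 2.

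**Figure D3:**
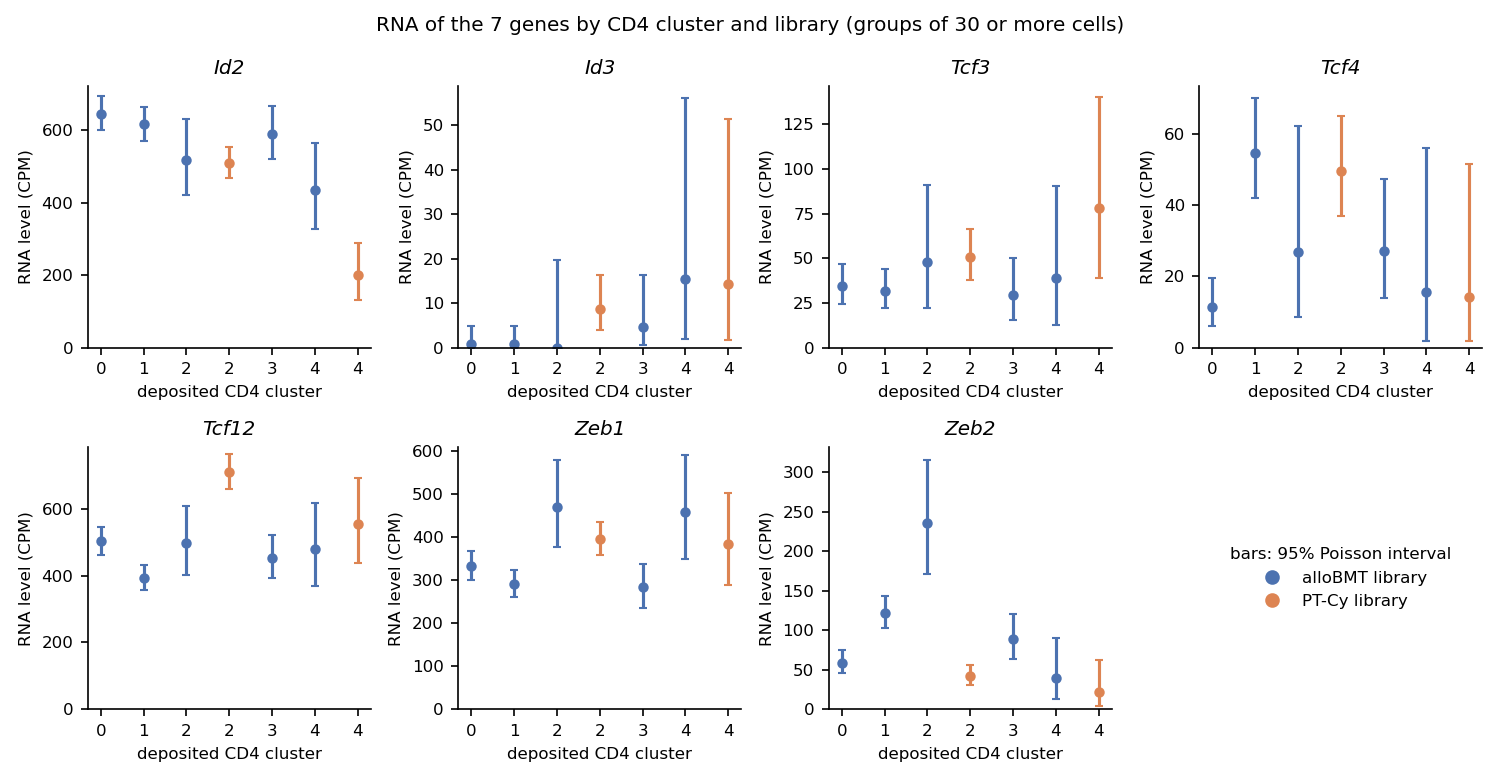
RNA level in CPM (vertical axes, starting at 0) of each of the 7 genes in the deposited CD4 clusters (horizontal axes), alloBMT in blue and PT-Cy in orange, with 95% Poisson intervals, for groups of at least 30 cells. Zeb2 is highest in alloBMT cluster 2 at 235 CPM (142 CPM without its highest cell), Tcf12 in PT-Cy cluster 2 at 711 CPM, and Tcf4 in alloBMT cluster 1 at 54.7 CPM.

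A UMI of the 6 genes of dividing cells was found in 269 of the 284 PT-Cy cells and 535 of the 926 alloBMT cells, so the members were compared between cells with and without one. Within alloBMT, between the 535 cells with and the 391 without, the log2 ratio was 0.13 (-0.23 to 0.49) for Zeb2, -0.14 (-0.30 to 0.02) for Tcf12, -0.09 (-0.23 to 0.05) for Id2 and 0.07 (-0.13 to 0.26) for Zeb1. Each of these 4 intervals includes 0. Among cells with such a UMI in both libraries, PT-Cy and alloBMT differed by -1.22 (-1.69 to -0.77) for Zeb2, 0.63 (0.49 to 0.77) for Tcf12 and -0.30 (-0.45 to -0.16) for Id2. These are close to the ratios over all cells, but the libraries are not matched for division in this way. A UMI of the list was found in 535 alloBMT cells, while the Mki67-rich cluster 2 held 42, and PT-Cy cells were deeper. Within cluster 2 the log2 ratios were -2.48 for Zeb2, 0.52 for Tcf12 and -0.02 for Id2. The reverse comparison, among cells without such a UMI, rests on 15 PT-Cy cells, in which Zeb2 and Tcf4 had no UMI.

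The balance within the Zeb pair and between Tcf12 and Id2 also differed between the libraries. UMIs are not scaled to gene length, so a share is compared between groups and not read as a level of one gene against the other. Zeb2 made up 23.0% (20.7 to 25.4) of the UMIs of Zeb1 and Zeb2 in alloBMT and 9.58% (7.23 to 12.4) in PT-Cy. By alloBMT cluster this share was 33.3% in cluster 2, 29.6% in cluster 1, 23.8% in cluster 3, 15.1% in cluster 0 and 7.81% in cluster 4, and in PT-Cy it was 9.61% in cluster 2 and 5.26% in cluster 4. Without the cell with 19 Zeb2 UMIs the alloBMT cluster 2 share was 22.5% (15.1 to 31.4), no longer above cluster 1. Tcf12 made up 42.6% (40.9 to 44.3) of the UMIs of Tcf12 and Id2 in alloBMT and 58.6% (56.1 to 61.1) in PT-Cy. In cluster 4 those shares were 52.5% (43.1 to 61.8) and 73.6% (64.1 to 81.7), and in cluster 2 they were 48.9% (41.6 to 56.3) and 58.2% (55.5 to 60.9), with overlapping intervals. Among the 3 E proteins, Tcf12 held 87.5% and 87.7% of their UMIs, Tcf3 6.51% and 6.67%, and Tcf4 5.99% and 5.66%. Without the cell with most Tcf4 UMIs in each library, Tcf4 held 5.75% (4.65 to 7.03) in alloBMT and 2.55% (1.64 to 3.77) in PT-Cy. Id3 held 0.32% (0.12 to 0.70) of the Id2 and Id3 UMIs in alloBMT and 1.77% (0.88 to 3.14) in PT-Cy.

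To compare how many cells had a UMI of each member, every cell was thinned to 1981 UMIs. This kept 830 alloBMT and 259 PT-Cy cells and left out 96 and 25 shallower ones. A Tcf12 UMI was found in 53.4% and 64.9% of cells (62.4% and 79.9% unthinned), an Id2 UMI in 67.8% and 57.5% (79.6% and 78.2%) and a Zeb1 UMI in 45.1% and 52.5% (56.5% and 71.8%). Id2 thus differed between the libraries at equal depth and not before thinning. A Zeb2 UMI was found in 12.3% (10.1 to 14.7) of alloBMT and 6.18% (3.57 to 9.84) of PT-Cy cells (16.2% and 10.6% unthinned). S100a9, a neutrophil gene that T cells should lack, was found in 2.05% of alloBMT and 8.11% of PT-Cy cells at the same depth (3.13% and 14.8% unthinned), and the globin gene Hbb-bs in 20.1% and 52.1%. The share of PT-Cy cells with a Zeb2 UMI is therefore no higher than that of the background RNA S100a9, as are those with a Tcf4 UMI (3.86%) and an Id3 UMI (2.32%). Tcf3, in 5.78% of alloBMT and 9.65% (6.34 to 13.9) of PT-Cy cells (10.3% and 20.4% unthinned), overlaps the PT-Cy interval of S100a9 (5.09 to 12.1). In PT-Cy both Zeb1 (46.2 to 58.7) and Id2 (51.3 to 63.6) overlap Hbb-bs (45.9 to 58.3). In alloBMT, Zeb2 and Tcf3 (4.29 to 7.60) lay above S100a9 (1.20 to 3.26) without overlap, while Tcf4, at 4.22% (2.95 to 5.82), overlapped it. An Id3 UMI was found in 5 of the 926 unthinned alloBMT cells (0.54%) and in 0 of the 830 thinned ones, which allows a share of up to 0.361% of cells with a UMI at that depth.

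Within single alloBMT cells at that depth, a Zeb1 UMI was found in 36.3% of the 102 cells with a Zeb2 UMI and in 46.3% of the 728 without. An Id2 UMI was found in 65.7% of the 443 cells with a Tcf12 UMI and in 70.3% of the 387 without. In PT-Cy, an Id2 UMI was found in 61.3% of 168 cells with and 50.5% of 91 without a Tcf12 UMI. Zeb1 stood at 56.2% (9 of 16 cells) with and 52.3% of 243 without a Zeb2 UMI, too few cells to give a direction. These are shares among cells of 1 library each and carry no interval and no test, so no direction is read from them.

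Genes that work with the helix-loop-helix members were mostly near the limit of detection or level. Of 18 listed partners and cofactors, 5 had at least 20 UMIs and none was 1.5-fold apart; their median log2 ratio was -0.12, against 0.06 over 10122 genes with 20 UMIs, of which 18.7% were 1.5-fold higher and 11.9% lower, 30.6% in all. Bhlhe40, an E-box repressor of activated T cells, had 1093 and 312 UMIs, 361 and 247 CPM, a log2 ratio of -0.55 (-0.73 to -0.37). The coactivators Ep300 and Crebbp, which E proteins recruit, were at 0.00 and 0.02, and the adaptors Ldb1 and Cbfa2t2 at -0.13 and -0.12. The 5 genes Id1, Tal2, Ascl2, Runx1t1 and Hey1 had no UMI in either library.

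Of 30 genes tied to E protein function in lymphocytes, 20 had at least 20 UMIs, and 10 of these were higher and 3 lower by 1.5-fold in PT-Cy, with a median log2 ratio of 0.33. Over all 10122 genes with 20 UMIs, 18.7% were higher and 11.9% lower, with a median of 0.06. Il7r, the interleukin-7 receptor chain of long-lived T cells, had 184 UMIs in alloBMT and 391 in PT-Cy, 60.8 and 309 CPM, a log2 ratio of 2.35 (2.09 to 2.61). Tcf7, the factor of stem-like T cells, was at 27.7 and 95.7 CPM, 1.79 (1.37 to 2.21), and Gata3, a factor of helper T cell development, at 128 and 239 CPM, 0.90 (0.67 to 1.12). The cytokine signalling inhibitor Socs1 was at 1.26 and the cell cycle inhibitor Cdkn1a at 1.06. The 3 lower genes were Cdk6, a kinase of cell cycle entry, at -0.63, the lymphoid factor Ikzf1 at -0.61 and the inhibitor Socs3 at -0.96. Ptcra, Rag1 and Rag2, targets of E proteins in developing lymphocytes, had no UMI.

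Of 24 genes tied to Zeb factors in T cells, Il7r among them again, 20 had at least 20 UMIs, 8 higher and 5 lower, with a median of 0.09. The shares over all 10122 genes with 20 UMIs were 18.7% higher and 11.9% lower. The higher genes included Gzma, a granzyme, at 20.1 and 153 CPM (2.92, 2.50 to 3.36), and Klrg1, a receptor of effector cells, at 18.5 and 74.4 CPM (2.01). The lower ones included Eomes, at 162 and 67.2 CPM (-1.27, -1.62 to -0.94), Prf1, the perforin gene, at -1.26, and Prdm1, which encodes Blimp-1, at -0.87. A list of 10 genes of NK or innate lymphoid cells, which share some of these genes, summed to 430 CPM in alloBMT and 672 CPM in PT-Cy. Most of this was Rora, at 256 and 523 CPM. Of the 5 members with 20 UMIs, 4 were higher, among them Klrb1c at 0.33 and 25.3 CPM and Tyrobp at 3.63 and 15.8 CPM. The other was Eomes, lower as given above. Klrb1b and Klra4 had no UMI. The part of such cells in the values of Gzma, Klrg1, Il7r, Gata3 or Zeb2 was not tested. Genes known as effector genes stood on both sides, and Tbx21, the gene of T-bet, was level at -0.05 (-0.35 to 0.24). Named genes outside the largest ratios of each list were chosen after their values were seen.

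The genes most like each member in level over the 7 CD4 groups of at least 30 cells, by Pearson correlation of log2(CPM + 10) among 3995 genes, were Eif2a (r = 0.99) and Hspa14 (0.99) for Zeb2, E2f3 (0.90) and Rab40c (0.90) for Tcf4, Slc6a6 (0.98) and Srsf2 (0.96) for Tcf12, and Fbxw7 (0.98) and Elk4 (0.97) for Zeb1. For Id2 they were Atp6v0a2 and Aktip (both 0.98), for Tcf3 Pdlim5 (0.99) and Dnm2 (0.98), and for Id3 Sppl2a (0.98) and Mtdh (0.96). The points share 2 libraries and the best of many genes over 7 groups reaches a high r readily, so these names are a description.

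Accessibility at the members differed less than their RNA, as it did over all genes. Of the 6285 genes with 100 UMIs, 22% were 1.5-fold apart in CD4 RNA. Counts of peaks in a gene or within 10 kb were summed, and 0 of 7 members were 1.5-fold apart in either set of T cells, where 5.35% of 14384 genes in CD4 cells (3.14% higher, 2.21% lower) and 3.91% of 15745 in CD8 cells (2.01% higher, 1.9% lower) were. Tcf12 was at 79.4 CPM in alloBMT and 100.1 CPM in PT-Cy CD4 cells, a log2 ratio of 0.33 (0.07 to 0.59), and at 76.2 and 94 CPM in CD8 cells, 0.30 (0.11 to 0.49). Id3 was at 69.5 and 89.7 CPM in CD4 cells, 0.37 (0.08 to 0.64), and at 67.6 and 80.8 CPM in CD8 cells, 0.26 (0.06 to 0.46). Tcf4 was at 101.7 and 75.4 CPM in CD4 cells, -0.43 (-0.73 to -0.15), and at 89.0 and 70.6 CPM in CD8 cells, -0.34 (-0.55 to -0.13). For these 3 genes both sets differed in the same direction with intervals that exclude 0. The share of all genes that do so was not computed, and both sets come from the same pool and library of each group. Without the highest cell of each library, Tcf4 RNA over all CD4 cells was also lower in PT-Cy, at -0.64 (-1.35 to 0.02). Within cluster 2 it was higher, at 0.82 (-1.22 to 3.96), and both of these RNA intervals include 0.

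Zeb2 accessibility was at 124 and 100.1 CPM in CD4 cells, -0.31 (-0.56 to -0.06), and at 108 and 113 CPM in CD8 cells, 0.05 (-0.12 to 0.22). Whether CD4 and CD8 cells differ in this ratio was not tested. Id2 was at 145 and 143 CPM in CD4 cells, -0.02 (-0.24 to 0.19), and at -0.09 (-0.24 to 0.06) in CD8 cells. Tcf3 at -0.13 and 0.00 and Zeb1 at -0.22 and -0.09 also had intervals that include 0 in both sets. Between CD4 and CD8 cells of the same library no member was 1.5-fold apart either way, where 0.559% of genes were higher and 2.08% lower in CD4 cells of alloBMT and 1.11% and 1.55% in PT-Cy. In alloBMT, Tcf4 and Zeb2 were slightly more open in CD4 cells, each by a log2 ratio of 0.19 (0.06 to 0.32 and 0.07 to 0.31), and Tcf3 by 0.10 (0.02 to 0.18); in PT-Cy all 7 intervals include 0.

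By deposited cluster, the difference between alloBMT CD4 clusters 1 and 0 that the RNA showed was also present in accessibility. Tcf4 was at 122 CPM (110.1 to 135) in cluster 1 and 83.0 CPM (72.6 to 94.6) in cluster 0, and Zeb2 at 135 CPM (123 to 149) and 107 CPM (95 to 120). Id3 ran the other way, at 57.0 CPM (48.9 to 66.0) in cluster 1 and 83.8 CPM (73.2 to 95.4) in cluster 0. The authors' clusters may rest on either readout, so this is a description. Within CD4 cluster 2, where Zeb2 RNA differed most, Zeb2 accessibility was 161 CPM (127 to 202) in alloBMT and 104 CPM (87.9 to 123) in PT-Cy, without overlap.

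Among CD8 clusters, for which RNA was not analysed here, cluster 6 stood among the higher groups at Id3 and Tcf12. Id3 was at 99.1 CPM (78.0 to 124) in 86 alloBMT and 108 CPM (85.9 to 135) in 121 PT-Cy cells there, against 65.6 CPM (59.0 to 72.8) in the largest alloBMT cluster 0. In each library this overlaps cluster 5, at 102 CPM (67.1 to 148) in alloBMT and 77.8 CPM (59.9 to 99.3) in PT-Cy. In alloBMT it also overlaps cluster 1 (62.7 to 97.3) and cluster 2 (65.3 to 89.0). Tcf12 in cluster 6 was at 93.8 CPM (73.3 to 118) and 129 CPM (104 to 157), against 74.9 CPM (67.8 to 82.5) in alloBMT cluster 0 and, in PT-Cy, 90 CPM (70.6 to 113) in cluster 5 and 81.2 CPM (67.1 to 97.4) in cluster 2. The PT-Cy value of cluster 6 overlaps cluster 5 but neither cluster 2 nor alloBMT cluster 0. The alloBMT value of cluster 6 overlaps every other alloBMT CD8 cluster. Id2 was lowest in PT-Cy cluster 5, at 99.7 CPM (79.3 to 124) in 189 cells, while the other CD8 groups of at least 30 cells lay between 125 and 164 CPM. That interval overlaps those of alloBMT clusters 3, 5, 6 and 7. Tcf4 in CD8 cells was highest in alloBMT cluster 3, at 106 CPM (94.8 to 118), which overlaps alloBMT clusters 0 (85.4 to 102) and 1 (76.2 to 114) among others.

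**Figure D4:**
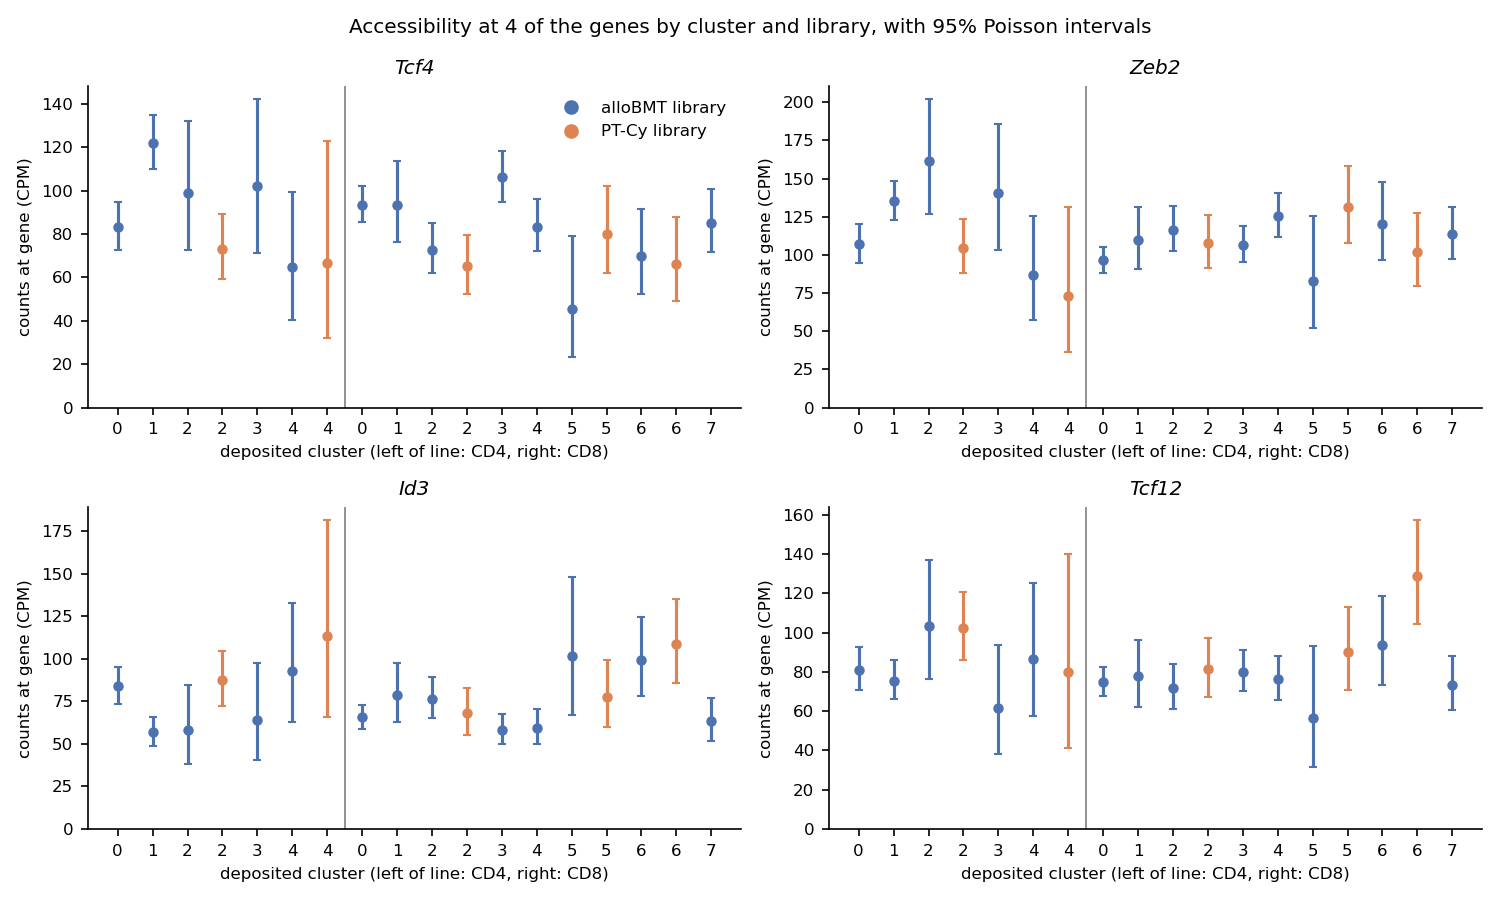
Accessibility at Tcf4, Zeb2, Id3 and Tcf12 in CPM (vertical axes, starting at 0) by deposited cluster (horizontal axes, CD4 left and CD8 right of the line), alloBMT in blue and PT-Cy in orange, with 95% Poisson intervals, for groups of at least 30 cells. Tcf4 stands at 122 CPM in alloBMT CD4 cluster 1 against 83.0 CPM in cluster 0, and Tcf12 at 129 CPM in PT-Cy CD8 cluster 6.

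Single peaks were compared as well. Of 125 peaks at the 7 genes, 38 had at least 100 counts over CD4 and CD8 cells of both libraries, and of these 4 were at least 1.5-fold more open and 3 less open in PT-Cy. Among all 44801 peaks with 100 counts, 6.59% were more open and 10.7% less open, 17.3% in all, so the members' 7 of 38 is near the background. At 2-fold, 2 of the 38 were more open and 1 less open, where 1.59% and 3.69% of all peaks were, 5.27% in all. Coordinates are those of the deposited peaks, which match GRCm38, and the gene table gives gene bounds but not exons, so places are given as inside or outside a gene.

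The Id3 peak at chr4:136143416-136144168, which covers the gene's start and the Id3 promoter window printed above, had 277 counts in alloBMT and 89 in PT-Cy, a log2 ratio of 0.70 (0.34 to 1.05). It was 0.82 (0.21 to 1.40) in CD4 and 0.62 (0.16 to 1.06) in CD8 cells. The Id3 gene itself lies at chr4:136143822-136145392. The peak with most counts at Id3, 4.0 kb downstream of the start at chr4:136147501-136148131, was level at 0.09.

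Zeb2, at chr2:44983512-45117442 on the minus strand, held the peak with the largest increase. That peak, chr2:45017098-45017741, lies inside the gene 100 kb from its 5′ end and had 104 counts in alloBMT and 54 in PT-Cy, a log2 ratio of 1.39 (0.89 to 1.88), with 1.25 in CD4 and 1.46 in CD8 cells. Its direction is opposite to that of Zeb2 RNA. The 10 other Zeb2 peaks with 100 counts lay between -0.73 and 0.17, and the lowest, chr2:45102857-45103489, had an interval that includes 0 (-1.73 to 0.13). The peaks over 2 annotated starts, chr2:45116206-45117538 and chr2:45109188-45110489, were at 0.05 and -0.12.

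Tcf12, at chr9:71844252-72111893 on the minus strand, had 2 more open peaks inside the gene, 11.6 and 13.6 kb from its 5′ end. At chr9:72099851-72100666 there were 78 and 33 counts, a log2 ratio of 1.10 (0.47 to 1.70), and at chr9:72098070-72098521 there were 152 and 50 counts, 0.74 (0.24 to 1.21). The start-site peak chr9:72110519-72112494, which covers the Tcf12 window printed above with its CAGCTG, was level at 0.11 (-0.10 to 0.32). By ratio, the 2 peaks past 1.5-fold thus lay away from the start. In CPM over all T cells they went from 3.31 to 7.09 and from 6.45 to 10.7, and the start-site peak from 44.5 to 48.1. The start therefore also took part in the rise of the summed counts.

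Tcf4, at chr18:69343429-69687967, showed the reverse. Both less open peaks lie in the gene's far part, 301 and 305 kb from its lower-coordinate end: chr18:69647507-69648488 with 148 and 13 counts, -1.17 (-2.11 to -0.35), and chr18:69644032-69645106 with 186 and 22 counts, -0.74 (-1.45 to -0.10). The 2 peaks near that lower-coordinate end, which have the most counts, were at -0.18 and 0.15, with intervals that include 0. A further peak with fewer counts, chr18:69613714-69614705, had 64 and 5 counts, -1.34 (-3.01 to -0.04).

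Id2, Tcf3 and Zeb1 held no peak past 1.5-fold among those with 100 counts. The Id2 start-site peak chr12:25095734-25096422, over the Id2 window printed above, had 1004 and 204 counts, 0.04 (-0.18 to 0.26). One Id2 peak upstream of the gene, chr12:25098248-25099038, was at -0.39 (-0.66 to -0.14). The Tcf3 start-site peak chr10:80432769-80434459 was at -0.09, and 2 of the peaks in the Tcf3 window cover the starts of Mbd3 and Uqcr11, so part of its summed signal belongs to neighbouring genes. The main Zeb1 peak chr18:5591029-5594209 was at -0.18 (-0.33 to -0.04).

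**Figure D5:**
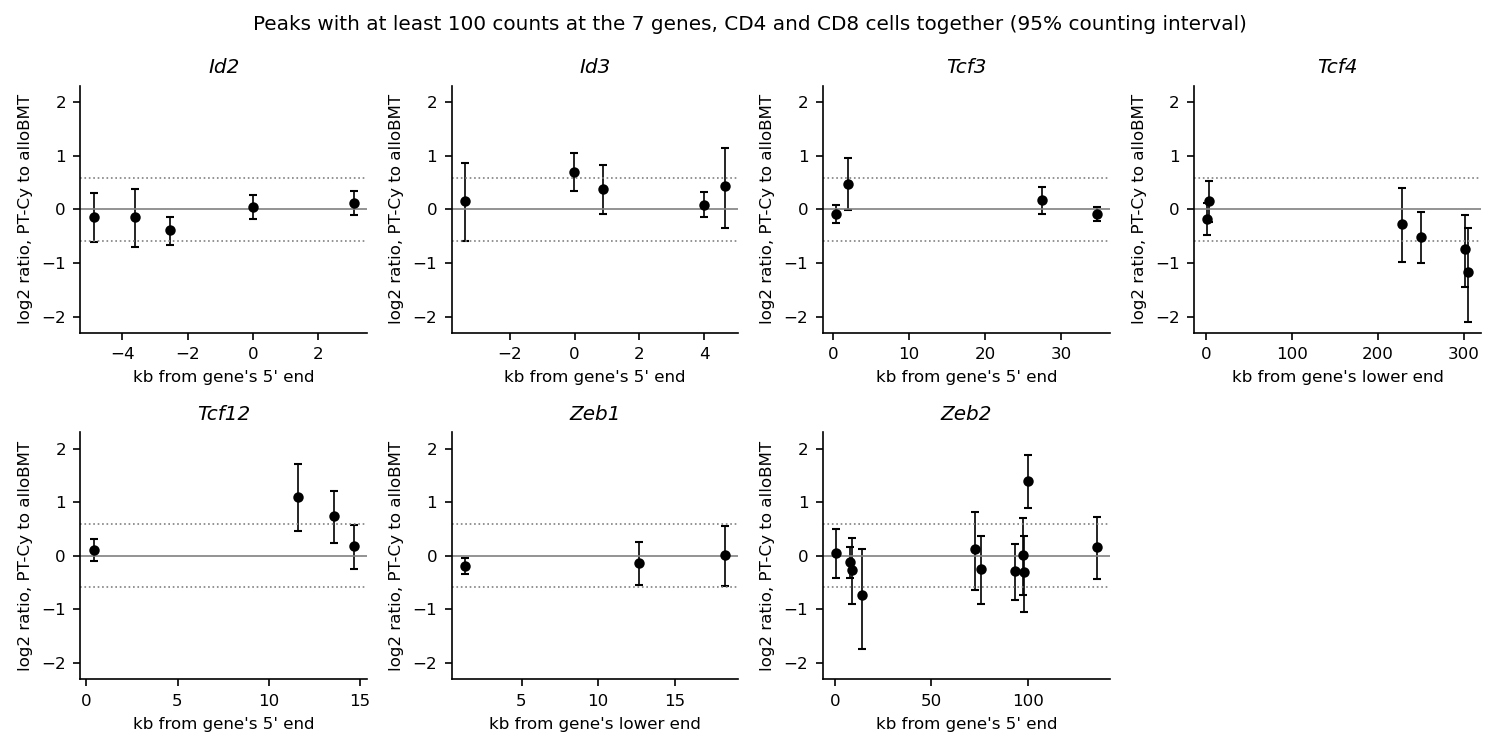
Log2 ratio of PT-Cy to alloBMT (vertical axes) of each peak with at least 100 counts, CD4 and CD8 cells together, by its distance in kb from the gene's 5′ end, or from its lower-coordinate end for Tcf4 and Zeb1 (horizontal axes), with 95% counting intervals and dotted lines at 1.5-fold. Start-site peaks lie near 0 except at Id3 (0.70), and the Zeb2 peak at 100 kb stands at 1.39.

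Overlapping genes are annotated at 4 of the members. Zeb2os, a long noncoding RNA that overlaps Zeb2, had 1 UMI in the CD4 set and Gm10125, which overlaps Zeb1, had 29, against 345 for Zeb2 and 1470 for Zeb1. Gm31439, a long noncoding RNA at Tcf4, and the pseudogenes Gm18821 and Rpl15-ps2 at Tcf12 were not matched to a row of the RNA table by name, so reads from them could not be told apart here. The sources used here do not say whether the counting used strand.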

How the data were processed

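RNA and ATAC of the same nuclei were measured in 1 alloBMT and 1 PT-Cy library, each from a pool of 4 mice. The authors used Cell Ranger ARC 1.0.1 and MACS2, per the submitters' processing notes; the sources used here do not give their settings. The build in these notes is human (GRCh38), but 49.2% of 32812 mouse gene starts of GRCm38.p6 lay in a deposited peak, against 6.12% after a shift of 20000 bases, so that assembly was used. The deposited tables hold whole-number counts per gene (RNA, CD4 set) or per peak (148283 peaks, both sets) and cell, not normalized, as the values themselves and the file headers show. Cell sets, clusters and quality values such as the mitochondrial percent were taken from the per-cell table deposited by the authors, of whose 58 columns 50 were not used; doublet treatment is not given there, and no doublet caller was run. Intronic UMIs made up 45.1% and 42.7% of CD4 UMIs in alloBMT and PT-Cy.

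Counts were summed per library and set, scaled to the set's total (CPM) and compared as log2 ratios, with 95% intervals from the exact binomial (Clopper-Pearson) given the sum of both counts. Levels carry exact Poisson and shares exact binomial intervals. All cover counting error only. Called means at least 1.5-fold with at least 100 counts, and list genes needed 20. Accessibility of a gene is the sum over peaks in it or within 10 kb. Where a share is 0, the limit is 3 cells of the total. The interval code was tested on simulated counts. Alternatives used edgeR 4.0.16 (TMM) and DESeq2 1.42.0 size factors in R 4.3.3, other minimum counts, thinned cells and subsets of cells; leaving out the cell with most UMIs of a gene was added after seeing the data. Named genes were the members, up to 5 per list with the largest ratio and 100 UMIs, the 2 most like each member, and peaks past 1.5-fold. One list gene that this rule names is not reported here. The members and lists were chosen with earlier results of these data known. CD8 RNA was not analysed here.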

Additional observations from a re-analysis of the deposited data

How the results depend on the processing

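No paired analysis was possible because each group is 1 library, and for the same reason no replicate could be left out. The count of members 1.5-fold apart in RNA, 3 over all CD4 cells, was 1 with TMM factors, 1 with DESeq2 size factors, 1 with the mean of each cell's CPM, and in cells with no UMI of the dividing list 1. It was 0 in cluster 2 alone and 0 in cluster 4 alone, where the members that differ have fewer than 100 UMIs or less than 1.5-fold. With each of the first 3 settings the member left was Zeb2, and in the fourth it was Tcf12. Apart from the minimum counts, which do not change a ratio, Zeb2 was below 0 in 10 of 10 alternatives that gave a ratio (-2.48 to -0.86), Tcf12 above 0 in 11 of 11 (0.21 to 0.93) and Id2 below 0 in 11 of 11 (-1.12 to -0.02), while Tcf4 was above 0 in 7 of 10. The values nearest 0, from cluster 2 for Id2 and cluster 4 for Zeb2 and Tcf12, have intervals that include 0. All alternatives draw on cells of the same 2 libraries. In CD8 accessibility the count of 0 became 1 with peaks within 2 kb, where Id3 stood at 0.60. The count of 7 peaks became 13 with a minimum of 50 counts and 3 at 2-fold. The other 26 counts stayed within 1.5 times the value given, but a like count can rest on other members. In cells with no Cd8b1 UMI the RNA count was 2, from Zeb2 (-1.01) and Tcf4 (0.89). Without cells holding a UMI of the 8 defining genes it was 2, from Zeb2 (-1.24) and Tcf4 (-1.01). Tcf12 and Tcf3 were under 1.5-fold in both settings. Depth limits Id3, Tcf3 and Tcf4 in RNA, with 17, 168 and 150 UMIs in all.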
